A study of Mus musculus with 6 samples.

Results

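Apolipoproteins, carrier proteins and acute-phase proteins are the secreted products by which the liver fills the plasma, and 40 genes of this kind were compared between liver tumors and normal livers of C3H/HeN mice. The genes were given as a list of names, and a feature of the array was taken for a gene when its design name, or the current symbol of its accession, was on the list. All 40 genes were found, on 45 features, among 34741 genes or design names on the array. All 40 were bright enough to be tested, among 18567 tested genes.

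The samples were 3 normal livers and 3 liver tumors of male C3H/HeN mice aged 74 to 75 weeks, a strain whose males develop liver tumors without any carcinogen. Per the study's methods the mice were second-generation offspring in the untreated arm of a project on arsenic exposure in gestation, fed a standard diet, and the tumors were cut out as macroscopic pieces that carried a Ha-ras mutation. The 6 RNAs were each hybridised to a 1-colour Agilent mouse array. Neither the labels nor the methods say whether each sample came from a different animal or whether a tumor and a normal liver shared one. The methods do name a paired test for expression differences between groups, without saying which samples formed a pair. The main fit here took the samples as unpaired, and the result of a paired form is given with the alternatives further below. The p-values below thus measure the spread between these samples only.

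Apolipoproteins coat the lipid particles of the plasma: apolipoprotein B holds together the particles that leave the liver, the A group builds high-density lipoprotein, and the C and E groups move between particles, where they switch lipases on or off and bind receptors. In inflammation, interleukin-6 and interleukin-1 reach the hepatocyte and, through STAT3, C/EBP and NF-kB factors, raise the acute-phase proteins, such as the serum amyloids A and the orosomucoids. Other members are carriers of haem, retinol, vitamin D or thyroxine that hepatocytes secrete in bulk at all times.

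The arrays of the 2 groups lay on different slides (slide 1 for the normal livers, slide 2 for the tumors), which were scanned apart, so an effect of the slide cannot be told apart from one of the tissue. Over the tested features the correlation of log2 values was 0.989 to 0.992 between normal livers, 0.980 to 0.990 between tumors and 0.914 to 0.950 between the groups. Local background had a median of 42 to 45 on normal liver arrays and of 22 to 23 on tumor arrays, no spot was saturated, and 44.7% to 48.9% of features lay well above background. Every feature of the 40 genes was well above background on all 6 arrays. Hepatocyte markers were present in both groups, with 8 of 12 lower and 1 higher in tumors and a summed expression value of 3448 to 3810 in normal livers against 2305 to 2528 in tumors. In whole tissue, fewer cells of a type and less RNA per cell cannot be told apart.

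Of the 40 genes, 7 were higher in tumors, 13 were lower and 20 were not called. The higher genes were led by Apoa4 (43.1-fold) and Lcn2 (39.0-fold), followed by Apoc2, Apom, Apoa1, Afm and Itih2. The lower genes were led by Orm3, Lipc, Orm2 and Orm1, which fell 7.89-fold, 7.82-fold, 7.05-fold and 6.78-fold, and also comprised Saa1, Saa2, Crp, Saa3, Saa4, Fetub, Lcat, Apoc4 and Apoh. The genes not called included Alb, Ttr, Hpx, Apoa2, Apob, Apoc3 and Apoe.

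A gene was called at an adjusted p under 0.05 in limma's moderated test, with Benjamini-Hochberg adjustment over all tested features. At that threshold 13.1% of all tested genes were higher and 21.0% were lower, against 17.5% and 32.5% of the 40 genes. The 3 tumors and the 3 normal livers did not overlap in 29 of the 40 genes, or 72.5%, against 51.8% of all tested genes. For each of these 29 genes the exact two-sided permutation test over the 6 arrays gave p = 0.1, the smallest p that 3 samples against 3 can reach. The median log2 fold change was -0.22 over the 40 genes and -0.13 over all tested genes. Under quantile normalization it was 0.01 over the 40 genes and -0.04 over all tested genes. When the arrays were scaled on their spike-in controls, 6 of the 40 genes were higher and 11 were lower, while 11.5% of all tested genes were higher and 9.81% were lower. That scaling also moved the balance of all calls, from 2441 higher and 3905 lower genes to 2133 and 1822, and quantile normalization gave 2768 and 3045.

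**Figure D1:**
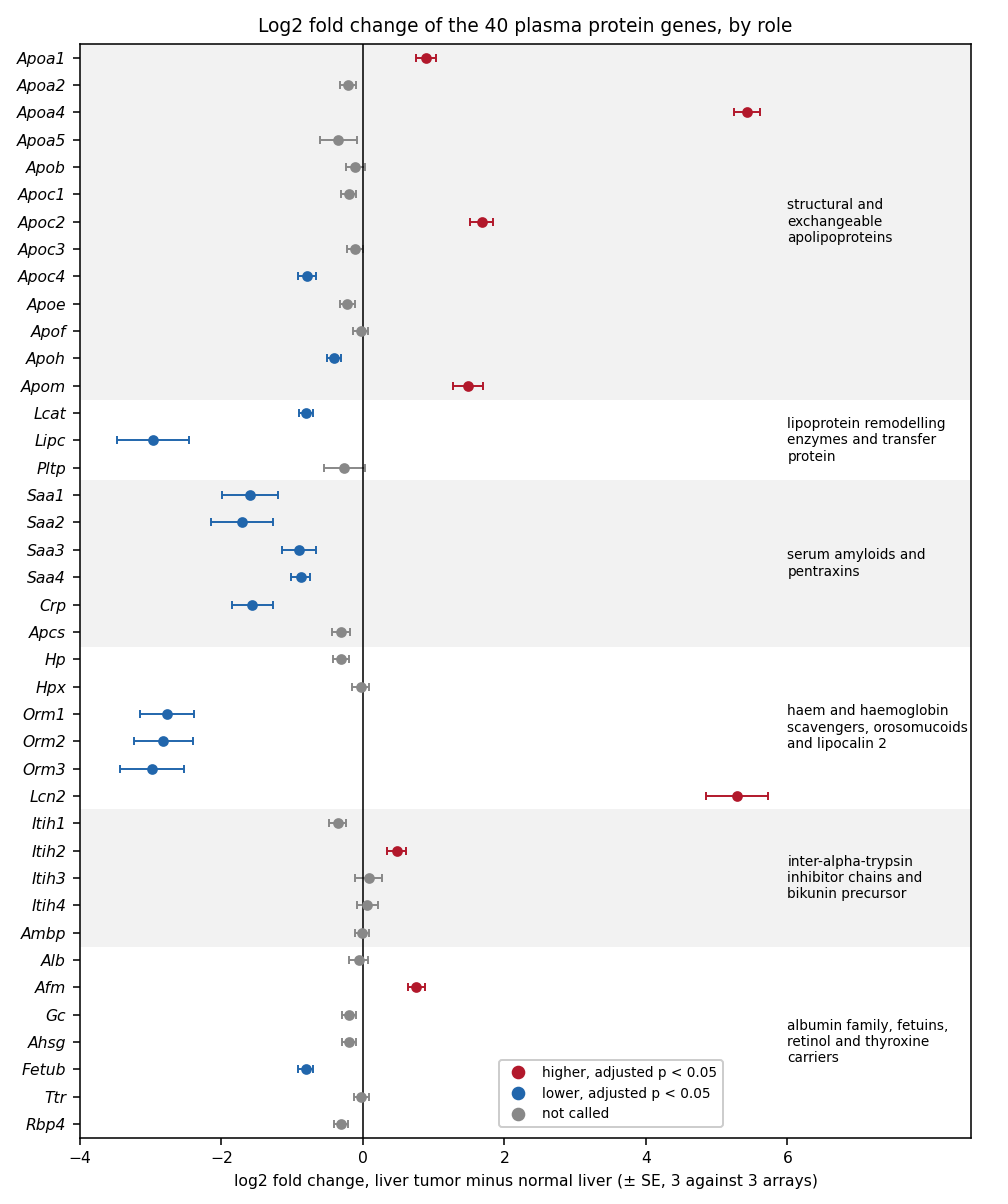
Log2 fold change of each of the 40 genes (x axis, liver tumor minus normal liver, 3 arrays against 3; bars are standard errors), grouped by role, with red and blue points for genes called higher and lower and grey points for genes not called. Apoa4 at 5.43 and Lcn2 at 5.29 stand far to the right, Lipc and the 3 Orm genes lie near -3, and most carriers lie near 0.

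The 13 apolipoproteins split into 4 that rose, 2 that fell and 7 that were not called, with a median log2 fold change of -0.11. Apolipoprotein A-IV, the product of Apoa4, is carried on chylomicrons and high-density lipoprotein and is made mostly in the intestine and, in mice, also in the liver. The expression value used here is the signal of a feature divided by the 75th percentile of its array, so that 1 is the level of that percentile. Apoa4 had values of 17.4, 14.9 and 11.4 in the normal livers and 633, 549 and 679 in the tumors. The gap between the groups was far wider than the spread within either, and the log2 fold change was 5.43 ± 0.18 (SE, limma adjusted p = 3.31e-05, n = 3 and 3). The 60 bases of its probe, read from the array files with their mm9 position, are shown because this is the stretch of Apoa4 on which the largest difference was measured. Its genomic span of 744 bases is wider than the probe.
Apoa4 probe, chr9:46049661-46050404, plus strand: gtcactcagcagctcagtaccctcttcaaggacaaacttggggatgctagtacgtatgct

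Apoc2 encodes the cofactor that lipoprotein lipase needs to clear triglyceride. Its values were 324, 467 and 346 in normal livers and 1218, 1210 and 1163 in tumors. All 3 tumors lay close together above every normal liver, a log2 fold change of 1.68 ± 0.16 (SE, limma adjusted p = 0.00109). Apom, the lipocalin that carries sphingosine-1-phosphate on high-density lipoprotein, had values of 168, 122 and 177 in normal livers and 538, 415 and 357 in tumors. It rose by a log2 fold change of 1.48 ± 0.21 (SE, limma adjusted p = 0.00409). Apoa1, the main protein of high-density lipoprotein, stood at 464, 442 and 509 in normal livers and at 1021, 856 and 770 in tumors. This was a rise of 1.86-fold, and tumor 1 was the highest in both Apoa1 and Apom.

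The apolipoproteins that fell did so by less than 2-fold. Apoc4, a minor apolipoprotein of very-low-density lipoprotein, had values of 247, 225 and 250 in normal livers and 125, 135 and 160 in tumors, a log2 fold change of -0.79 ± 0.13 (SE, limma adjusted p = 0.00694). Apoh, or beta-2-glycoprotein I, a phospholipid-binding plasma protein, had values of 678, 693 and 638 in normal livers and 496, 529 and 490 in tumors. Its log2 fold change of -0.41 ± 0.10 (SE) passed at a limma adjusted p of 0.0257, but the call was lost without normal liver 1 or 2 or without any 1 of the tumors, at adjusted p = 0.0558 to 0.0917. It was also lost under spike-in scaling and quantile normalization.

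The 7 apolipoproteins without a call were Apoa2, Apoa5, Apob, Apoc1, Apoc3, Apoe and Apof, with log2 fold changes from -0.35 for Apoa5 to -0.03 for Apof. Apoe, the ligand of the low-density lipoprotein receptor, had values of 2063, 1932 and 1835 in normal livers and 1650, 1664 and 1687 in tumors. The groups did not overlap in Apoe, Apoa2 and Apoc1, yet their log2 fold changes of -0.22, -0.21 and -0.20 had limma adjusted p-values of 0.145, 0.195 and 0.193. Apoa5, an activator of lipoprotein lipase, had values of 17.0, 24.5 and 29.5 in normal livers and 16.7, 14.9 and 24.0 in tumors, and the groups overlapped.

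Different features of a gene did not always give the same answer, and the brighter one stands for the gene here. For Apob, the structural protein of very-low-density lipoprotein, the brighter feature had a log2 fold change of -0.11 ± 0.14 (SE, limma adjusted p = 0.597). The dimmer Apob feature had 0.55 ± 0.17 (SE, limma adjusted p = 0.0455). For Apoc3, an inhibitor of lipoprotein lipase, the brighter feature had values of 1211, 1229 and 1177 in normal livers and 1018, 1138 and 1194 in tumors. The dimmer Apoc3 feature had 1.97, 2.30 and 2.32 in normal livers and 5.53, 4.52 and 6.19 in tumors, a log2 fold change of 1.29 ± 0.15 (SE, limma adjusted p = 0.00235). Whether the paired features of Apob and Apoc3 report different transcripts was not tested. The 2 features of Gc had log2 fold changes of -0.20 and 0.10, neither of them called, and those of Apoa2 and of Itih4 had the same sign within each gene.

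**Figure D2:**
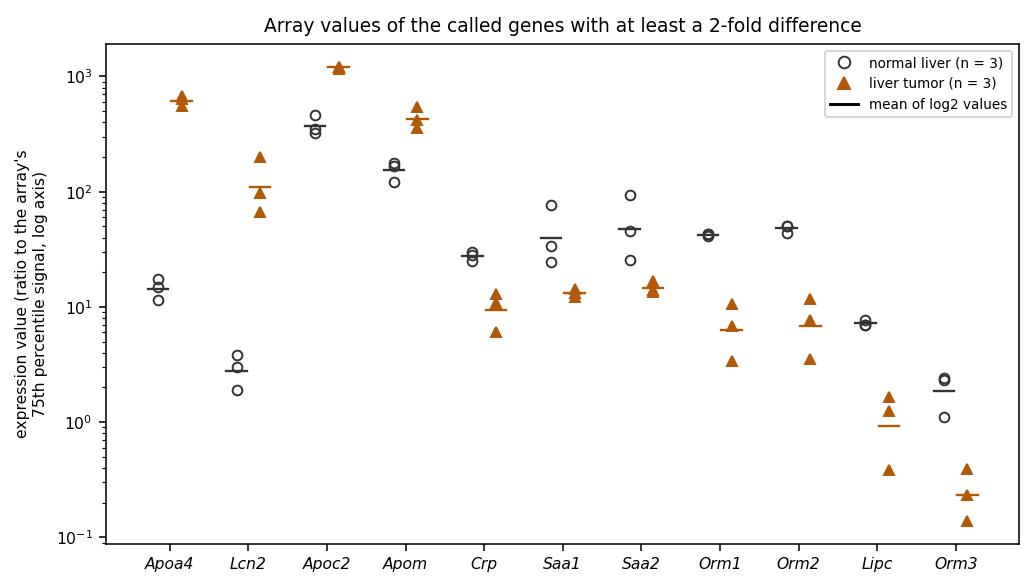
Expression value on each array (y axis, ratio to the array's 75th percentile signal, log axis) for the 11 called genes that differed at least 2-fold, with open circles for normal livers, triangles for liver tumors and short lines for the mean of log2 values. The groups do not overlap in any of them, and the normal livers spread from 24.4 to 76.7 for Saa1 and from 25.8 to 93.7 for Saa2.

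Of the enzymes and the transfer protein that remodel lipoproteins in plasma, Lipc and Lcat fell. Lipc encodes hepatic lipase, which hydrolyses triglyceride and phospholipid on lipoprotein remnants and high-density lipoprotein. Its values were 7.02, 7.66 and 6.99 in normal livers and 0.384, 1.25 and 1.64 in tumors. The normal livers were nearly alike while tumor 1 lay well under the other tumors, and the log2 fold change was -2.97 ± 0.51 (SE, limma adjusted p = 0.00758). Lcat, the enzyme that esterifies cholesterol on high-density lipoprotein, had values of 42.3, 40.8 and 44.3 in normal livers and 23.8, 23.6 and 25.4 in tumors. Its log2 fold change was -0.81 ± 0.10 (SE, limma adjusted p = 0.00291), with little spread in either group. Pltp, the phospholipid transfer protein, had a log2 fold change of -0.26 ± 0.29 (SE, limma adjusted p = 0.520), and its groups overlapped.

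All 4 serum amyloid A genes and Crp were lower in tumors, and Apcs was not called. Saa1 and Saa2 encode the apolipoproteins of high-density lipoprotein that rise most steeply in the acute phase. Saa1 had values of 76.7, 33.8 and 24.4 in normal livers and 14.2, 13.1 and 12.2 in tumors. Saa2 had values of 93.7, 45.3 and 25.8 in normal livers and 16.8, 14.1 and 13.3 in tumors. In both genes normal liver 1 stood highest and normal liver 3 lowest, 3.14 times apart in Saa1 and 3.64 times in Saa2, while the tumors were close to each other. The log2 fold changes were -1.60 ± 0.40 for Saa1 and -1.70 ± 0.44 for Saa2 (SE, limma adjusted p = 0.0250 and 0.0278). Without normal liver 2, or without any 1 of the tumors, neither gene was called, at adjusted p = 0.0512 to 0.0652 for Saa1 and 0.0511 to 0.0721 for Saa2. The genes are close paralogs, so cross-hybridisation between them is possible, and RefSeq lists the name of each as an older name of the other.

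Saa4, the constitutive serum amyloid A, had values of 40.3, 37.0 and 31.4 in normal livers and 19.1, 21.1 and 18.7 in tumors, a log2 fold change of -0.88 ± 0.13 (SE, limma adjusted p = 0.00501). Saa3, which is made in macrophages and fat as well as in liver, had values of 1.22, 1.42 and 1.24 in normal livers and 0.839, 0.825 and 0.468 in tumors. Its log2 fold change of -0.90 ± 0.24 (SE, limma adjusted p = 0.0315) lost its call without any 1 of the normal livers, at adjusted p = 0.0711 to 0.0966, and under spike-in scaling. Markers of Kupffer cells and macrophages were lower beside it in 7 of 10 genes and higher in none, with a summed value of 118 to 188 in normal livers and 58.2 to 89.6 in tumors; their part in the Saa3 difference was not tested.

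Crp encodes C-reactive protein, a pentraxin that in the mouse responds only weakly to inflammation. Its values were 30.0, 28.4 and 25.2 in normal livers and 5.99, 10.8 and 13.0 in tumors. Tumor 1 was again the lowest, and the log2 fold change was -1.56 ± 0.29 (SE, limma adjusted p = 0.00908). Apcs, serum amyloid P, the pentraxin that takes the part of C-reactive protein in the mouse acute phase, had values of 52.8, 51.7 and 53.9 in normal livers and 44.3, 47.8 and 37.0 in tumors. The groups did not overlap, but the log2 fold change of -0.30 ± 0.13 (SE) had a limma adjusted p of 0.115.

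The promoters of Saa1 and Saa2, the 250 bases before a RefSeq start on GRCm38.p6, are shown because these neighbouring genes fell together. Capitals mark matches to the C/EBP-type letters TTNNGNAA on either strand, the one motif of those searched that either window held. The 2 windows were the same at 197 of 249 positions compared without gaps, or 79.1%.
Saa1 promoter, chr7:46742981-46743230, minus strand: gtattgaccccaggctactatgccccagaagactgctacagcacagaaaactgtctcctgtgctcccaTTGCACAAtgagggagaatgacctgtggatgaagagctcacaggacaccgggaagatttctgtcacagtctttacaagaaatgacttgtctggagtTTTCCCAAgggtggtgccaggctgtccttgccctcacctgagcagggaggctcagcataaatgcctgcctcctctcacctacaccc
Saa2 promoter, chr7:46751583-46751832, plus strand: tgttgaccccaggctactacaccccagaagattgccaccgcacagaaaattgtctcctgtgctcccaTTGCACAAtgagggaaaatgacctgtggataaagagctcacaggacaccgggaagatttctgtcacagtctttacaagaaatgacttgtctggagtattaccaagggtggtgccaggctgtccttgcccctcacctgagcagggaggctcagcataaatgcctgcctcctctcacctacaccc

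All 3 orosomucoid genes fell, by log2 fold changes near 3 in size. Orosomucoids, or alpha-1-acid glycoproteins, are plasma lipocalins that bind basic drugs and steroids. Orm1 had values of 42.6, 41.4 and 43.0 in normal livers and 3.40, 6.82 and 10.5 in tumors. Orm2 had values of 50.3, 43.9 and 50.5 in normal livers and 3.54, 7.64 and 11.8 in tumors. In both genes the normal livers were tightly grouped, and tumor 1 was lowest and tumor 3 highest. The log2 fold changes were -2.76 ± 0.38 for Orm1 and -2.82 ± 0.41 for Orm2 (SE, limma adjusted p = 0.00383 and 0.00453). Orm3 had values of 2.33, 1.11 and 2.43 in normal livers and 0.139, 0.395 and 0.234 in tumors. The log2 fold change was -2.98 ± 0.46 (SE, limma adjusted p = 0.00520). These tumor values were near the floor, though well above background on all 3 arrays. The cytokine gene Lif, at 0.123, 0.134 and 0.110 in tumors, was well above background on 1 tumor array.

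Orm1, Orm2 and Orm3 are close paralogs, so their features may share signal and the 3 results are not independent of each other. The probes, with mm9 positions from the array files, are shown so that a reader can see which stretch stood for each gene. The positions of Orm1 and Orm3 span 608 and 1484 bases, more than the 60 bases of a probe, and that of Orm2 is unbroken.
Orm1 probe, chr4:63006483-63007090, plus strand: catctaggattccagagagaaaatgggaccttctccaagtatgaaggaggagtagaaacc
Orm2 probe, chr4:63024979-63025038, plus strand: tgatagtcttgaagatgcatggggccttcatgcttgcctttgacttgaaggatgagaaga
Orm3 probe, chr4:63018910-63020393, plus strand: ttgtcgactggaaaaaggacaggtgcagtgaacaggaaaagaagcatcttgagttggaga

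The promoters of Orm2 and Orm3, again 250 bases before a RefSeq start on GRCm38.p6, were the same at 168 of 249 positions compared without gaps, or 67.5%. Capitals mark C/EBP-type matches on either strand.
Orm2 promoter, chr4:63362199-63362448, plus strand: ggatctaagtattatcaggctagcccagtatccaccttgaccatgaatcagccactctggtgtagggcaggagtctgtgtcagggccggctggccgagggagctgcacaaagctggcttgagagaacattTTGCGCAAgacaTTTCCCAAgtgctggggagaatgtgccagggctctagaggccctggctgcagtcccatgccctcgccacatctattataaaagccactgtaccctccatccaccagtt
Orm3 promoter, chr4:63355908-63356157, plus strand: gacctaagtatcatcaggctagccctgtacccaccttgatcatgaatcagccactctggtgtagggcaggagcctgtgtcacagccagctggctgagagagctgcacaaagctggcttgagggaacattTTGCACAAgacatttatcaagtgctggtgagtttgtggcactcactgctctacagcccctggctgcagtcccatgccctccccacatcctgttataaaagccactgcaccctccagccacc

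Lcn2 moved the other way. It encodes lipocalin 2, a siderophore-binding protein of neutrophil granules that injured or inflamed epithelia and hepatocytes also secrete. Its values were 3.80, 3.03 and 1.91 in normal livers and 201, 66.6 and 97.0 in tumors. Tumor 1 stood well above both other tumors, every tumor stood far above every normal liver, and the log2 fold change was 5.29 ± 0.44 (SE, limma adjusted p = 0.000685). Of 12 neutrophil markers, 6 were bright enough to be tested and none of these was called. Their summed value was 150 to 171 in normal livers and 133 to 185 in tumors. Most of that sum was Csf3r, at 153, 159 and 141 in normal livers and 155, 173 and 124 in tumors. Of the 6 that were too dim, all named after their values were seen, Mpo and Mmp8 were well above background on no array, Ltf and Ngp on that of tumor 1 alone, and Retnlg and Cxcr2 on some arrays of both groups. S100a8 had 0.923, 1.01 and 0.607 in normal livers and 3.37, 0.912 and 0.732 in tumors. S100a9 had 3.76, 4.06 and 2.43 in normal livers and 12.9, 4.51 and 2.80 in tumors. Tumor 1, the highest in Lcn2, was thus also the highest in S100a8 and S100a9 and in the dim Ltf and Ngp. Among the other tested markers it was the highest tumor in Camp and Elane. It was the lowest in Ly6g, at 1.10 against 1.41 and 1.60 in tumors 2 and 3, and tumor 2 was the highest in Csf3r. The part of neutrophils in the Lcn2 difference was not tested.

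The remaining scavengers were not called. Hp, haptoglobin, which binds free haemoglobin, had values of 1251, 1108 and 1203 in normal livers and 1011, 919 and 947 in tumors, a log2 fold change of -0.31 ± 0.11 (SE, limma adjusted p = 0.0698). Hpx, hemopexin, which binds free haem, had a log2 fold change of -0.03 ± 0.12 (SE, limma adjusted p = 0.864). The groups overlapped in Hpx and not in Hp.

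The inter-alpha-trypsin inhibitors are protease inhibitors whose heavy chains are linked to bikunin and stabilise hyaluronan. Only Itih2, a heavy chain, was called, with values of 80.3, 93.1 and 97.8 in normal livers and 143, 118 and 117 in tumors. Its log2 fold change of 0.48 ± 0.14 (SE, limma adjusted p = 0.0392) lost its call when any 1 of the 6 arrays was left out, at adjusted p = 0.0572 to 0.103, and under spike-in scaling. The other heavy chains, Itih1, Itih3 and Itih4, had log2 fold changes of -0.36, 0.08 and 0.06. Ambp, the precursor of bikunin and alpha-1-microglobulin, had a log2 fold change of -0.01 ± 0.10 (SE, limma adjusted p = 0.930).

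Among albumin, its relatives, the fetuins and the small carriers, 1 gene rose, 1 fell and 5 were not called. Afm, or afamin, a vitamin E carrier of the albumin family, had values of 183, 214 and 220 in normal livers and 350, 371 and 319 in tumors. Its log2 fold change was 0.76 ± 0.12 (SE, limma adjusted p = 0.00655), with a wide gap between the groups. Fetub, or fetuin-B, an inhibitor of astacin proteases, had values of 310, 302 and 313 in normal livers and 165, 176 and 188 in tumors, a log2 fold change of -0.81 ± 0.10 (SE, limma adjusted p = 0.00311). Its neighbour Ahsg, or fetuin-A, which keeps calcium phosphate in solution, had a log2 fold change of -0.20 ± 0.10 (SE, limma adjusted p = 0.171).

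Alb, serum albumin, had values of 2447, 2449 and 1923 in normal livers and 2123, 2221 and 2162 in tumors. The groups overlapped, and the log2 fold change was -0.06 ± 0.13 (SE, limma adjusted p = 0.760). Ttr, the thyroxine and retinol carrier transthyretin, had a log2 fold change of -0.02 ± 0.10 (SE, limma adjusted p = 0.891). Rbp4, the plasma retinol carrier, and Gc, the vitamin D carrier, had log2 fold changes of -0.31 and -0.20, with groups that did not overlap and limma adjusted p-values of 0.0561 and 0.166. Hp, Itih1 and Rbp4 were called lower when the variance was fitted with an intensity trend. Over all 20 genes without a call the log2 fold change was never above 0.36 in size, and 11 of the 20 had the opposite sign under quantile normalization, so no direction is given for them.

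Several of the genes are neighbours in the genome, and neighbours did not always move together. In the Apoa1 cluster, Apoa1 and Apoa4 rose while Apoc3, which lies between them, and Apoa5 were not called. In the Apoe cluster, Apoc2 rose, its neighbour Apoc4 fell, and Apoe and Apoc1 were not called. The Saa and Orm clusters fell as a whole, with 4 of 4 and 3 of 3 genes lower, although under spike-in scaling Saa3 was not called. In the albumin cluster only Afm rose, in the fetuin pair only Fetub fell, and none of Itih1, Itih3 and Itih4 was called.

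**Figure D3:**
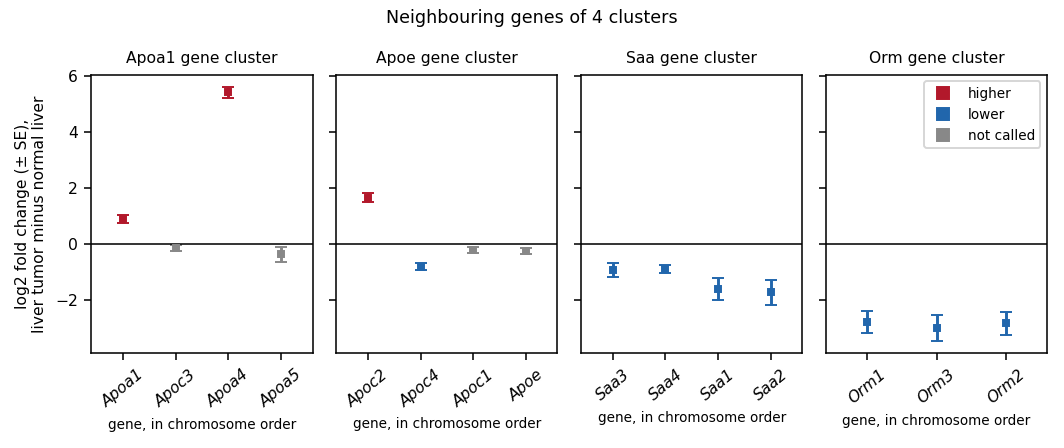
Log2 fold change (y axis, liver tumor minus normal liver, with standard errors) of the genes of 4 clusters, placed in chromosome order along the x axis without scale. Apoa4 at 5.43 and Apoc2 at 1.68 stand apart from their neighbours, whereas all members of the Saa and Orm clusters lie under 0.

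The tumors were not alike. Tumor 1 was the farthest from the normal livers in 5 of the 7 higher and 7 of the 13 lower genes, and tumor 3 in 1 and 5. Among the lower genes, Orm1, Orm2, Crp, Lipc, Fetub and Apoc4 had tumor 1 lowest and tumor 3 highest. Saa1, Saa2 and Saa3 ran in reverse, and Orm3, Saa4, Lcat and Apoh ran in neither order. The summed hepatocyte markers ran in that order too, at 2305, 2380 and 2528 for tumors 1, 2 and 3; their part in the order of the tumors was not tested. The median of the 40 log2 differences from the normal livers was nevertheless close between tumors, at -0.23, -0.19 and -0.20.

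**Figure D4:**
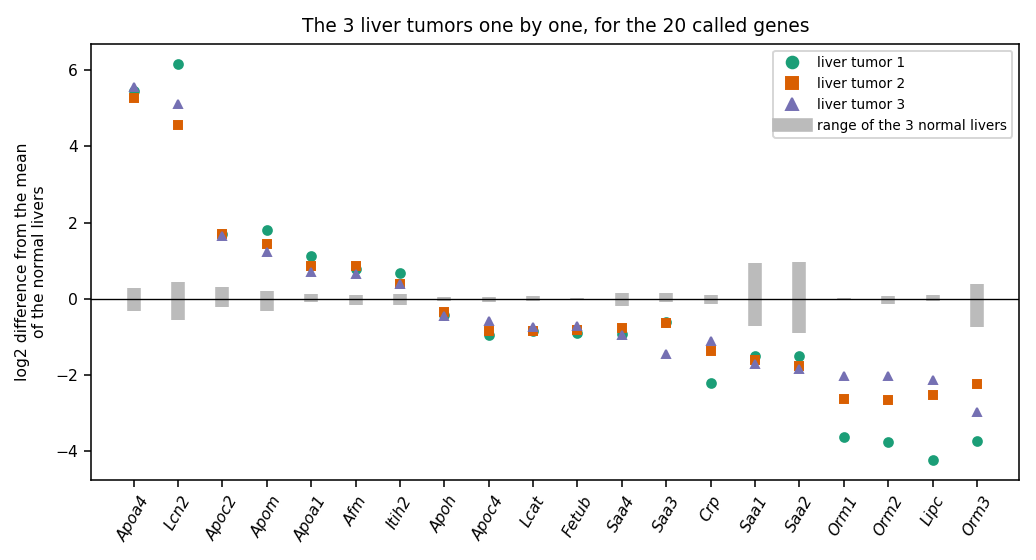
Log2 difference of each liver tumor from the mean of the normal livers (y axis) for the 20 called genes (x axis), with grey bars for the range of the 3 normal livers. The tumors separate most in Lcn2, Crp, Lipc and the Orm genes, and tumor 1 is the lowest of the 3 in Lipc, Crp, Orm1, Orm2 and Orm3.

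Promoters were found in RefSeq for 34 of the 40 genes, as 41 windows from 250 bases before to 50 after a start, and short motifs were counted on both strands in these and in all 32851 promoter windows of that length. C/EBP-type letters (TTNNGNAA) were in 26 of the 41 windows, or 63.4%, against 40.7% of all windows. STAT3-type letters (TTCNNNGAA) were in 2 of the 41, those of Apcs and Itih4, against 8.30% of all windows. The kB consensus was in 2, those of Apoa4 and Apob, against 4.51%. The HNF1 half-site (GTTAAT) was in 6, those of Afm, Alb, Apoc2, Apoe, Gc and Itih1, against 7.10%. Matches of different motifs could overlap, and a match is a run of letters, not a bound site. The promoters of Apoa4 and Lcn2, the genes with the largest rise, are shown with their matches in capitals, a kB consensus for Apoa4 and a C/EBP-type match for Lcn2.
Apoa4 promoter, chr9:46240594-46240843, plus strand: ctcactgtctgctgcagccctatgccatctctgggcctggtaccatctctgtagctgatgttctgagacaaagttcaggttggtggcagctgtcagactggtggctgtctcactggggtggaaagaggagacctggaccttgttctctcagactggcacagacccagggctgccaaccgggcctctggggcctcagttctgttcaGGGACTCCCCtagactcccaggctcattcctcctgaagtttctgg
Lcn2 promoter, chr2:32387740-32387989, minus strand: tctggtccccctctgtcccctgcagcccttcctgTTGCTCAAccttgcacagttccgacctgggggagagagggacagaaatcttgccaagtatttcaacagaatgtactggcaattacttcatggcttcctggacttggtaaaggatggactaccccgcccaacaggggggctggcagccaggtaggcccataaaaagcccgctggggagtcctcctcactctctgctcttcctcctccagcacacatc

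The partners of these proteins gave context. Over all tested genes, for comparison with the lists below, 13.1% were higher and 21.0% lower, with a median log2 fold change of -0.13. Under spike-in scaling these shares were 11.5% and 9.81%. Of 22 genes for lipoprotein assembly, receptors and lipases, 20 were tested. In tumors 9 (45%) were higher and 4 (20%) lower, with a median log2 fold change of 0.38. Under spike-in scaling 7 of them were higher and 1 was lower. Angptl8 and Angptl4 encode secreted regulators of lipoprotein lipase, and their log2 fold changes were 2.72 and -1.83. Angptl4 varied widely among the normal livers, at 36.0, 111 and 72.6.

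Of 23 genes of interleukin-6 and interleukin-1 signalling, 18 were tested. Of these 2 (11.1%) were higher, near the share over all tested genes, and 6 (33.3%) lower. The median log2 fold change was -0.20. Under spike-in scaling 2 were higher and 3 lower. Lifr, the leukemia inhibitory factor receptor, Il1rap, the accessory chain of the interleukin-1 receptor, and Il1r1, that receptor itself, fell by log2 fold changes of 1.77, 1.66 and 0.96. Osmr, the oncostatin M receptor, rose by 1.25. The cytokine genes Il6, Osm, Lif, Il11 and Tnf, named after their values were seen, were too dim to be tested.

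Of 20 other acute-phase and secreted liver proteins, 19 were matched and tested. Of these 4 (21.1%) were higher and 6 (31.6%) lower, or 4 and 4 under spike-in scaling. Members of this list with a call thus lay on both sides. Il1rn, the interleukin-1 receptor antagonist, was not well above background on any normal liver array and was at least 12.1-fold higher in tumors (limma adjusted p = 0.00223), the bound being the tumor mean over the lowest signal that was well above background on each normal array or the feature's own signal, whichever was higher. Cd14, a co-receptor for bacterial lipopolysaccharide, had a log2 fold change of 3.54. Hamp, the iron hormone hepcidin, had -2.46, and Mug2, a murinoglobulin protease inhibitor with a close paralog, had -1.22.

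Of 16 transcription factors of apolipoprotein and plasma protein genes, 1 (6.25%) was higher and 5 (31.25%) were lower, with a median log2 fold change of -0.38. Under spike-in scaling 1 was higher and 3 were lower. Foxa3, a forkhead factor of hepatocytes, rose by 0.91. Nr1h4, the bile acid receptor FXR, Rxra, its dimer partner, and Creb3l3, or CREBH, a liver factor that acts on Apoa4 and Apoc2 among other genes, fell by 1.22, 0.81 and 0.66 on the log2 scale. The changes in the factors and in their target genes were measured in the same 6 samples, and no link between them was tested.

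**Figure D5:**
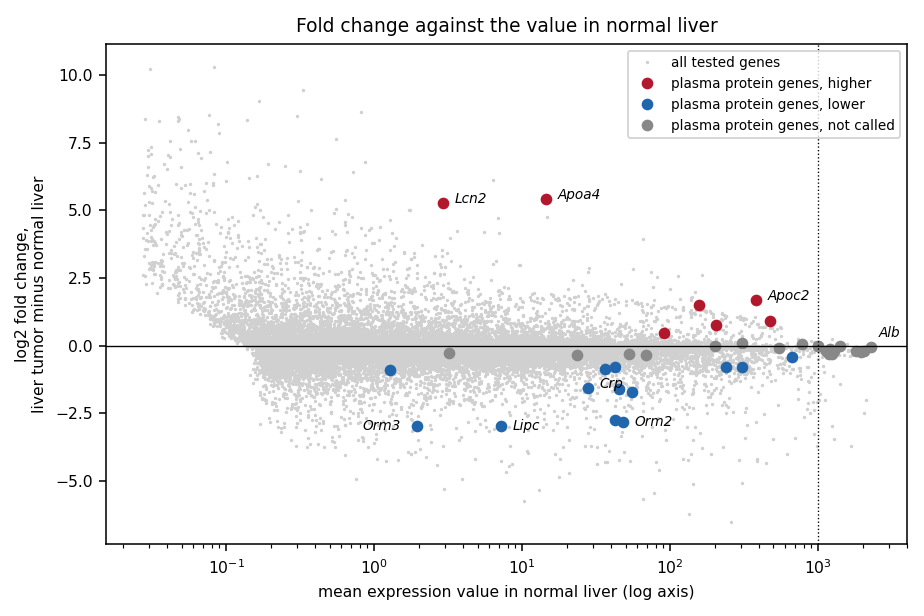
Log2 fold change (y axis, liver tumor minus normal liver) against the mean expression value in normal liver (x axis, log axis) for all 18567 tested genes in light grey and the 40 plasma protein genes in colour. The 10 plasma protein genes to the right of the dotted line at 1000 are all grey, with log2 fold changes from -0.31 to -0.01.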

How the data were processed

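RNA from 3 normal livers and 3 liver tumors was hybridised to 1-colour Agilent arrays of 62976 spots with mm9 probe positions. The deposited intensity (processed signal, background-subtracted and spatially detrended by the authors) came from Agilent Feature Extraction, version 10.7.3.1 per the file headers and 12.0.3.1 per the submitters' processing notes. The authors' deposited table of ratios matched each signal over its array's 75th percentile in 100% of spots, within 0.01 plus 0.1% of the value. No column lacked a sample.

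Here each signal was divided by the 75th percentile of its array (124 to 183), the log2 values of repeated spots were averaged, and controls and spots flagged as outliers were dropped. Of 55681 features besides controls, 27235 were named through an accession and 3581 by a current symbol in RefSeq's gene table, 565 by a synonym, and 24300 kept the design name. The fit took the 24901 features that 1 group or both had well above background on every one of its 3 arrays. A gene was represented by its brightest tested feature. limma 3.58.1 in R 4.3.3 (lmFit and eBayes, no covariate, two-sided, Benjamini-Hochberg adjusted p under 0.05 over all tested features) was tested on simulated data first. SE is limma's moderated standard error. Tables and figures were made with Python 3.11.15.

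All 40 genes were accounted for. In the other lists the rule was to name up to 4 called genes with the largest change. Some genes the rule would name are not reported here. The genes and lists were chosen with earlier results of these data known. Alternatives were normexp background correction (offset 50), quantile normalization, spike-in scaling, no filter, a stricter filter, the deposited ratios and replicate number as a block. Further ones were an intensity trend, an unpaired and a paired t-test, the mean over a gene's features and leaving out each array. Replicate numbers were not taken to pair the samples. Deviations from the group means correlated at 0.07, 0.13 and 0.05 between same-numbered arrays and at -0.139 to 0.055 between the others. With 3 arrays a group these values cannot decide whether the samples were paired. With 3 arrays a group, their number limits the precision.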

Additional observations from a re-analysis of the deposited data

How the results depend on the processing

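Over 17 alternatives, 6 of which left out an array, 577 of 680 values of single genes kept their sign and their side of the threshold, 59 lost a call, 8 gained one and 36 changed sign, none of these 36 in a gene called at first. The 20 calls were all kept with normexp background correction, the stricter filter, the deposited ratios, the intensity trend and the mean over features. The trend added Hp, Itih1 and Rbp4 as lower (7 higher and 16 lower), and the mean over features added Rbp4 as lower and Apoc3 as higher. Of them 19 were kept under quantile normalization (Apoh lost), 17 under spike-in scaling (Apoh, Itih2, Saa3 lost) and 15 with no filter (Apoh, Itih2, Saa1, Saa2, Saa3 lost). The replicate block kept 18 calls and lost Apoh and Itih2 (adjusted p = 0.0567 and 0.0906), with 6 higher and 12 lower. An unpaired t-test on the expression values called 5 genes higher and 13 lower. It left out Lcn2, Orm3, Itih2, Saa1, Saa2 and Saa3 and added Ahsg, Gc, Hp and Rbp4. The study's methods name a paired t-test. That form called 0 members and 0 of all genes in either direction, with 18 members and 5767 genes at an unadjusted p under 0.05.

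Leaving out 1 array gave 6 members higher each time and 9 to 12 lower, and over all genes 1862 to 2191 higher and 2010 (without normal liver 2) to 3342 lower, with 2587 without normal liver 3. All genes called higher were 1614 with no filter and 1372 by the unpaired t-test. All genes called lower were 1822 under spike-in scaling and 1887 with no filter. The median over the 40 genes was -0.15 with normexp, 0.011 under quantile normalization, -0.13 under spike-in scaling and -0.24 to -0.18 without 1 array. The cause of these shifts was not tested.

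With normexp the log2 fold changes that changed sign were those of Apoc3 0.0050, Apof 0.092, Hpx 0.079, Ambp 0.048, Alb 0.056 and Ttr 0.068. Under quantile normalization the log2 fold changes that changed sign were those of Apoa2 0.055, Apob 0.048, Apoc3 0.11, Apoe 0.028, Apof 0.16, Hpx 0.24, Ambp 0.19, Alb 0.082, Gc 0.029, Ahsg 0.071 and Ttr 0.21. Under spike-in scaling the log2 fold changes that changed sign were those of Apof 0.052, Hpx 0.051, Ambp 0.069, Alb 0.024 and Ttr 0.061. With the mean over features the log2 fold changes that changed sign were those of Apob 0.22 and Apoc3 0.59, and Apoc3 was then called (adjusted p = 0.0103). Without 1 array the ranges that crossed 0 were Apob -0.17 to 0.013, Apof -0.072 to 0.018, Pltp -0.47 to 0.066, Hpx -0.11 to 0.036, Itih3 -0.098 to 0.22, Itih4 -0.055 to 0.19, Ambp -0.034 to 0.012 and Ttr -0.063 to 0.0074.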

Other observations

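The plasma protein genes with the highest values in normal livers were not called. Genes without a call were also found at low values, such as Pltp at a mean of 3.23 in normal livers. With the level set at 1000 after the values were seen, 10 of the 40 genes had a mean expression value above it in normal livers, and 0 of these 10 were called by limma, with log2 fold changes from -0.31 to -0.01. At or under that level 20 of 30 were called. One of these, Apoc2, lay above the level in tumors, at 1218, 1210 and 1163. Of all 49 tested genes above the level, 12 or 24.5% were called, with log2 fold changes from -3.70 to 0.24, against 34.2% of the 18518 genes at or under it. No spot was flagged as saturated, and why the brightest genes were not called was not tested.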
